A study of Mus musculus with 6 samples.

Results

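The genes described here are 32 genes of the constitutive proteasome, given by name. They were grouped as 7 subunits of the alpha ring, 7 of the beta ring, 6 ATPases and 12 non-ATPase genes of the regulatory particle. Psmd5, counted with the last, is a chaperone of that particle rather than a part of the finished one. The 32 were taken from 18193 genes measured on 6 one-colour expression arrays of mouse leukaemia cells. Among the probe sets annotated to 1 symbol only, the one of highest mean level stood for its gene, and all 32 genes had one. Levels are log2 values, so a difference of 1 is a doubling.

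Cdh1-deficient cells came from Mx1-Cre(+)/Cdh1f/f mice (n = 3), and Cdh1-intact cells from littermates that were Mx1-Cre(-)/Cdh1f/f (n = 3), all on a C57BL/6 background. Both groups therefore carried 2 copies of the conditional gene-trap allele, Cdh1GT [f-cDNA], and differed in Cre, which was induced with pIpC at 7 to 8 weeks of age. Marrow was taken 4 weeks after the last injection and 2 days after 5-fluorouracil (150 mg/kg), and N-myc was introduced with the retroviral vector pMXs-IG, which also marks cells with green fluorescent protein (GFP). RNA came from mononuclear marrow cells sorted for GFP when a mouse was moribund, and each array was taken as 1 mouse. The Mx1 promoter answers to interferon in many cell types, so it does not limit deletion to the B lineage. Cdh1 here is the product of Fzr1, a co-activator of the ubiquitin ligase APC/C, the anaphase-promoting complex. The comparison asks which transcripts differ between leukaemia cells with and without it.

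The proteasome is the protease to which APC/C and other ubiquitin ligases send their substrates. Its barrel, the 20S core, has outer alpha rings that hold the gate and inner beta rings that hold the cutting sites. The 19S regulatory particle caps the barrel. Its ATPases unfold the substrate and open the gate, and its non-ATPase subunits bind ubiquitin chains and remove them. Subunits are needed in fixed proportions, and in mammals the transcription factor Nfe2l1 raises many of their genes together when proteasome activity is short. Dividing blood cells and their leukaemias, which make and turn over much protein, depend on it, and the beta-ring site of Psmb5 is the main target of bortezomib, a proteasome inhibitor used in myeloma.

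Promoter sequences are shown for 5 members: the 3 of 32 whose groups did not overlap between Cdh1-deficient and Cdh1-intact cells (as in 11.7% of all genes), Psmc2, Psma5 and Psmb4, and the catalytic genes Psmb5 and Psmb6, which hold a match to the antioxidant response element to which Nfe2l1 binds. All are RefSeq sequences of build GRCm38.p6, 300 bases each, 5′ to 3′ on the gene's strand, from 250 bases before the annotated start to 50 after it. Capitals mark the 9 letters TGACNNNGC of the element core or the letters CCAAT, the motif of the factor NF-Y. Psmc2 has 2 promoters in the table, and the one with the lower coordinates is shown (chr5:21785025-21785324, plus strand). Psma5 lies at chr3:108256676-108256975 (plus), Psmb4 at chr3:94886909-94887208 (minus), Psmb5 at chr14:54617946-54618245 (minus) and Psmb6 at chr11:70525107-70525406 (plus).
Psmc2: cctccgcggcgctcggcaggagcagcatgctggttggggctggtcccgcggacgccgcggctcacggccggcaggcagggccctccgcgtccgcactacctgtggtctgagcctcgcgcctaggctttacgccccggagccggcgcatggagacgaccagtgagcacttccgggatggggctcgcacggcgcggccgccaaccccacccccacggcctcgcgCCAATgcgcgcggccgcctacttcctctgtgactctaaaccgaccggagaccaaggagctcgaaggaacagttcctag
Psma5: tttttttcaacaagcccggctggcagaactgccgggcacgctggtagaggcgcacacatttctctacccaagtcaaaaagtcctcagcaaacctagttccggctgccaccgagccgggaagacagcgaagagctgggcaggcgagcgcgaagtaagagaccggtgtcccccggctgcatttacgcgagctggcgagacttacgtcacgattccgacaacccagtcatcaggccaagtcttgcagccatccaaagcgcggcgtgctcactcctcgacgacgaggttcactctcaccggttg
Psmb4: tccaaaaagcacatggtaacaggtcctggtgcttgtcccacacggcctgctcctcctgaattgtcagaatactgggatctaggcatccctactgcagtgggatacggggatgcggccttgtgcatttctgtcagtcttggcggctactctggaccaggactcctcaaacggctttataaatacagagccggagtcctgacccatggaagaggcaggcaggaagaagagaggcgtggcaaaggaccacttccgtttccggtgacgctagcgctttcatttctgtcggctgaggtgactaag
Psmb5: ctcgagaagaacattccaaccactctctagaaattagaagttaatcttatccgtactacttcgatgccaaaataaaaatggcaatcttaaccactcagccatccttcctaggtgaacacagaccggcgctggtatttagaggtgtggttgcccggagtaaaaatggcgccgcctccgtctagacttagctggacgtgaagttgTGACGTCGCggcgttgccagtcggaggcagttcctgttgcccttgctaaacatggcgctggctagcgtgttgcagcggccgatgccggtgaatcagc
Psmb6: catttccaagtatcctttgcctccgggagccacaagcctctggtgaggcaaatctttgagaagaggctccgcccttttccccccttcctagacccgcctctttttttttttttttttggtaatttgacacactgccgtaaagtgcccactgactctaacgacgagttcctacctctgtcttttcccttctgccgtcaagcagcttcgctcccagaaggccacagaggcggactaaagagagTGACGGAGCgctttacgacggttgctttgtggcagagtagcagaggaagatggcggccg

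The element core began 47 bases before the start of Psmb5 and 9 bases before that of Psmb6. Both motifs were searched on both strands, and no matches overlap in the sequences shown. The element core was found in 4 of the 26 members with a promoter in the RefSeq set (15.4%), against 14.0% of all 27025 genes there. The other two were Psmc6 and Psmd12. CCAAT was found in 10 of 26 members (38.5%) and in 41.1% of all genes. The members' shares thus lay near those of all genes, and these letters alone in this window do not show whether a factor binds.

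Fzr1 itself, the targeted gene, read 8.10, 7.73 and 8.22 on the Cdh1-deficient arrays and 8.93, 8.04 and 8.92 on the Cdh1-intact arrays, a difference of -0.61 (SE 0.28, limma adjusted p = 0.849) with overlap at Cdh1-intact array 2. The sources used here do not say on which side of the trap its probes lie. The array labelled Cdh1-intact 2 stood apart (r of 0.93 to 0.94 with the other arrays over genes, which correlated at 0.98 to 0.99 among themselves) and went against the label of a B-cell leukaemia. Its B-cell markers (7 of 8 measured) averaged 4.83, against 8.11 to 8.55 on the Cdh1-deficient arrays and 8.26 and 8.98 on the other Cdh1-intact arrays (sums of log2 levels 56.8 to 59.9 in Cdh1-deficient and 33.8 to 62.9 in Cdh1-intact cells). Its T and NK markers (8 of 8) averaged 9.43, against 5.16 to 5.18 on the Cdh1-deficient arrays and 5.52 and 6.90 on the other Cdh1-intact arrays (sums 41.3 to 41.4 in Cdh1-deficient and 44.2 to 75.5 in Cdh1-intact cells). Of these markers Klrd1 lay under 4 on all arrays. Neutrophil markers (8 of 8) averaged 9.56 to 11.76 in Cdh1-deficient cells. In Cdh1-intact cells they averaged 6.26 on array 2 and 10.37 and 9.35 on arrays 1 and 3. Neutrophil markers thus averaged 9.35 or more on every array but Cdh1-intact array 2. Monocyte and macrophage markers (5 of 5) averaged 6.10 to 7.02 in Cdh1-deficient cells. In Cdh1-intact cells they averaged 5.08 on array 2 and 7.50 and 6.21 on arrays 1 and 3. Erythroid markers (3 of 5) averaged 4.38 to 4.72 in Cdh1-deficient and 4.37 to 6.15 in Cdh1-intact cells, with Hba-a1 under 4 throughout. The part of other cells in the members' levels was not tested.

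Across the 32 genes the groups lay close together. None passed the limma test between Cdh1-deficient and Cdh1-intact cells (adjusted p under 0.05, with 0% of all genes called). The median log2 difference was -0.03, against 0.0034 over all genes, with 12 members higher and 20 lower in Cdh1-deficient cells. Of all genes 50.9% were higher, and of the 3993 genes at or above the level of the lowest member 62.0%, with a median of 0.07. Differences ran from -0.28 for Psmc3 to 0.28 for Psmc2, so all 32 lay within 0.3 of 0, a limit set after the values were seen. Of all genes 76.9% lay within it, and of the genes at or above the level of the lowest member 72.8%. The median size of a difference, whatever its sign, was 0.08 for the members and 0.13 for all genes. The mean level of the 32 genes was 11.41, 11.28 and 11.43 on Cdh1-deficient arrays 1, 2 and 3, and 11.37, 11.27 and 11.49 on the Cdh1-intact arrays. These array means averaged 11.37 ± 0.08 in Cdh1-deficient and 11.38 ± 0.11 in Cdh1-intact cells (SD, n = 3 each), so the groups overlapped fully. The direction of this small shift depended on single arrays. The members' median was -0.07 with 9 of 32 higher without Cdh1-intact array 2, 0.03 with 20 higher without Cdh1-deficient array 2, and 0.03 with 19 higher without Cdh1-intact array 3. With 1 array left out, 29 to 31 of the 32 lay within 0.3, with 31 without Cdh1-intact array 2. Of all genes 69.5% to 78.8% did so in those fits. Without probe sets marked as sharing a target between transcripts, 26 of 28 members and 77.2% of all genes lay within it.

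Counts of separated groups were read against all genes. In 3 of 32 members (Psma5, Psmb4 and Psmc2) the values of the 2 groups did not overlap, with Cdh1-deficient cells higher each time. That is 9.38% of the members, where 11.7% of all genes were separated, 6.65% with Cdh1-deficient cells higher and 5.09% with them lower. At an unadjusted p under 0.05 there was 1 member, Psmc2, where 5.50% of all genes passed, 4.01% upward and 1.49% downward. Both shares lie near or under those of all genes, so neither is a result about the proteasome.

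**Figure D1:**
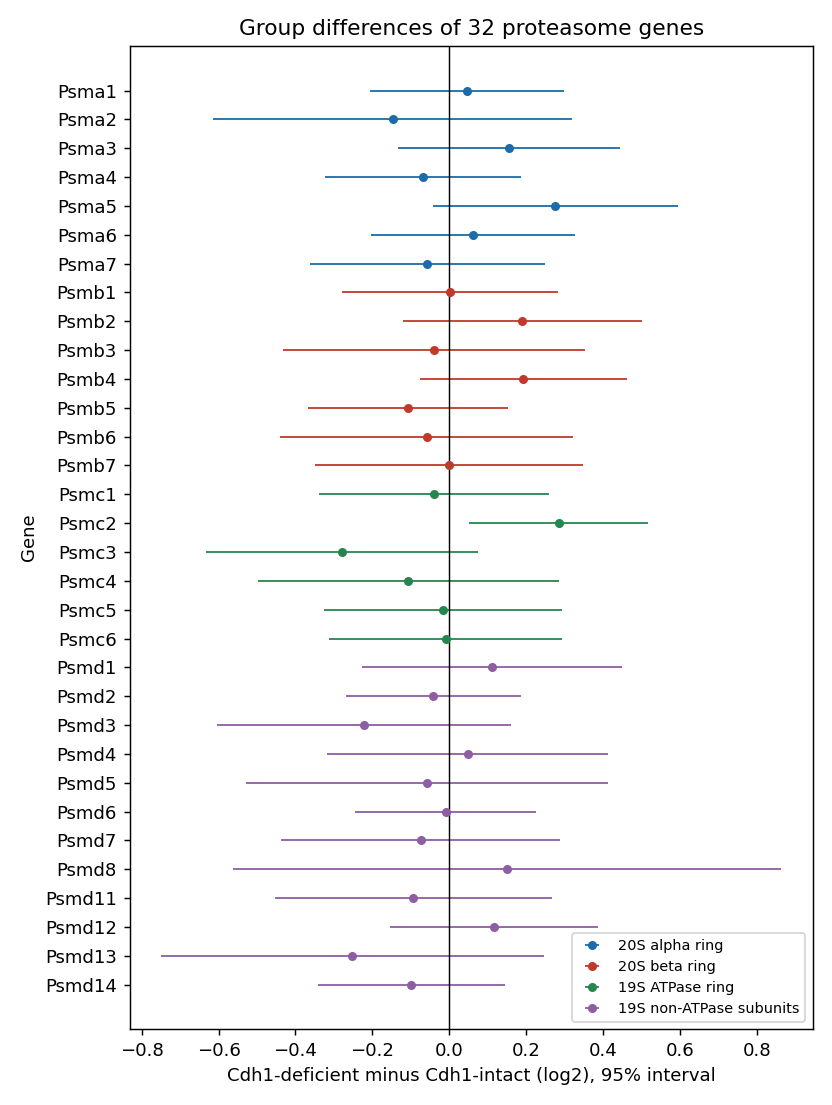
Difference of each proteasome gene between Cdh1-deficient and Cdh1-intact cells (x axis, log2, points) with its 95% limma interval (lines), ordered by gene down the y axis and coloured by subunit class. Points lie between -0.28 and 0.28, and the interval of Psmc2 alone leaves out 0.

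The intervals say how large a difference the 6 arrays could have missed. In 23 of 32 members the 95% interval of the difference lay within 0.5 on either side of 0 (71.9%, against 44.9% of all genes), and in all 32 it lay within 1. The widest was that of Psmd8, -0.56 to 0.86. The median half-width of the members' intervals was 0.31. The normalization puts the arrays on a common scale, so a change of all transcripts per cell would not show. In bulk samples fewer cells of a type and less RNA per cell cannot be told apart.

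**Figure D2:**
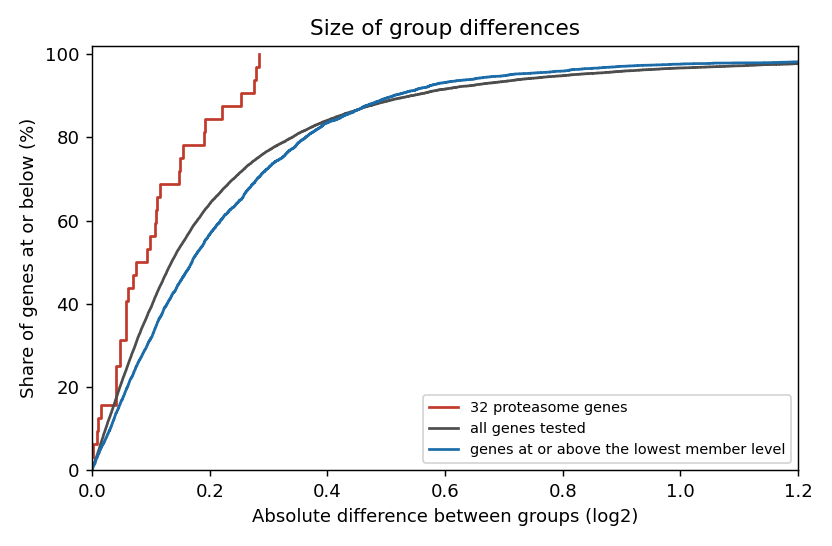
Share of genes (y axis, %) whose difference between the groups is at or below the size on the x axis (log2, sign removed), for the 32 proteasome genes, all genes tested and the genes at or above the level of the lowest proteasome gene. The proteasome curve reaches 100% below 0.3, where the curve of all genes stands at 76.9%; the x axis ends at 1.2.

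The subunits varied little between mice of the same group. Their median within-group SD was 0.14, against 0.20 over all genes and 0.23 over genes at or above the lowest member's level. In 26 of 32 members it was under the median of all genes, as in 40.9% of the genes at that level. Leaving out any 1 array moved the members' median SD only between 0.13 and 0.15. The count of members under the median of all genes then ran from 21 to 27, as in 40.7% to 44.8% of the genes at that level. The lowest member's level was 8.80, while the members' array means averaged 11.37 in Cdh1-deficient and 11.38 in Cdh1-intact cells. The genes at or above it were thus not matched to the members in level. The part of signal level in the small spread and the small differences was not tested. The smallest spread was that of Psmd2, a scaffold subunit of the base, at 10.84, 10.70 and 10.74 in Cdh1-deficient and 10.81, 10.77 and 10.83 in Cdh1-intact cells. The 6 values thus spanned 0.139, and the groups overlapped. The widest was that of Psmd8, known from yeast as the last subunit to join the lid, at 12.36, 11.99 and 12.45 in Cdh1-deficient and 12.28, 11.52 and 12.55 in Cdh1-intact cells. Cdh1-intact array 2 was its lowest value, and its difference was 0.15 with that array and -0.15 without it.

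Low and high values tended to fall on the same arrays. The lowest of the 6 values fell on Cdh1-intact array 2 in 12 members and on Cdh1-deficient array 2 in 10, and the highest fell on Cdh1-intact array 3 in 16 members and on Cdh1-deficient array 3 in 8. The beta ring followed this most often, with its lowest value on Cdh1-intact array 2 in 6 of 7 genes and its highest on Cdh1-intact array 3 in 5 of 7. In the alpha ring those counts were 3 and 5 of 7, in the ATPases 1 and 3 of 6, and among the non-ATPase subunits 2 and 3 of 12, where Cdh1-deficient array 2 was lowest in 5. The arrays that most often held the highest and the lowest value were thus both Cdh1-intact. How often each array held the lowest or highest value over all genes was not counted. These counts therefore do not set the proteasome genes apart from other genes.

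**Figure D3:**
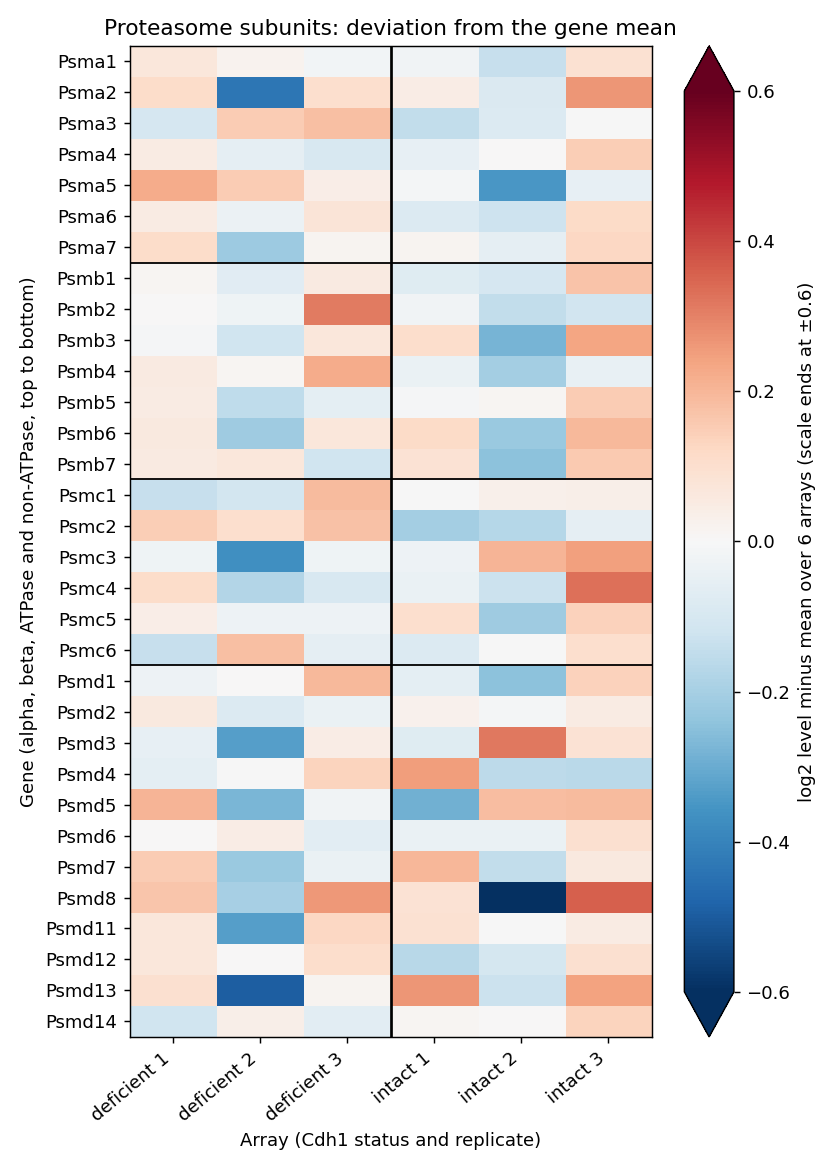
Level of each proteasome gene on each array minus that gene's mean over the 6 arrays (colour, log2), with Cdh1-deficient arrays left of the line and Cdh1-intact arrays right of it, and the alpha, beta, ATPase and non-ATPase genes from top to bottom. Cdh1-intact array 3 is above the gene mean in 26 of 32 genes and Cdh1-intact array 2 below it in 25; Psmd8 on Cdh1-intact array 2 is the darkest cell.

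In the alpha ring, whose subunits form the gate of the barrel, 4 of 7 genes were higher and 3 lower in Cdh1-deficient cells, with a median difference of 0.05. Psma5 read 12.30, 12.22 and 12.11 in Cdh1-deficient and 12.06, 11.73 and 12.02 in Cdh1-intact cells. All 3 Cdh1-deficient arrays were higher, the nearest pair by 0.05, and Cdh1-intact array 2 was the lowest. The difference of 0.27 (SE 0.13, 95% interval -0.04 to 0.59) missed the threshold of the limma test (adjusted p = 0.849) and was 0.17 without that array. Another probe set of the gene read 12.07, 12.08 and 12.20 in Cdh1-deficient and 11.86, 11.47 and 11.88 in Cdh1-intact cells, also without overlap. Its remaining probe set, at a mean level of 4.48, differed by -0.21, and it alone carries no mark of a target shared between transcripts.
Psma3 read 12.60, 12.85 and 12.88 in Cdh1-deficient and 12.55, 12.62 and 12.70 in Cdh1-intact cells, with Cdh1-deficient array 1 among the Cdh1-intact values. Psma2 read 12.49, 11.95 and 12.49 in Cdh1-deficient and 12.43, 12.30 and 12.65 in Cdh1-intact cells, where Cdh1-deficient array 2 stood lowest. Psma4, whose tail is known from yeast as a main part of the closed gate, read 12.24, 12.14 and 12.09 in Cdh1-deficient and 12.14, 12.19 and 12.34 in Cdh1-intact cells. These 3 overlapped between the groups, with differences of 0.15, -0.15 and -0.07. Psma1, Psma6 and Psma7, further subunits of the ring, differed by 0.05, 0.06 and -0.06, and their groups overlapped too.

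In the beta ring 3 of 7 genes were higher and 4 lower, with a median difference of -0.0009. Psmb5, Psmb6 and Psmb7 are its members that cut protein, and their differences ran from -0.11 to -0.0009.
Psmb5, the chymotrypsin-like site, read 11.69, 11.49 and 11.58 in Cdh1-deficient and 11.63, 11.65 and 11.80 in Cdh1-intact cells. Psmb6, the caspase-like site, read 11.66, 11.39 and 11.67 in Cdh1-deficient and 11.72, 11.38 and 11.80 in Cdh1-intact cells. Psmb7, the trypsin-like site, read 9.87, 9.88 and 9.69 in Cdh1-deficient and 9.90, 9.57 and 9.97 in Cdh1-intact cells. The groups overlapped in each, and for Psmb6 and Psmb7 Cdh1-intact array 2 gave the lowest value. Their differences were -0.11 (95% interval -0.37 to 0.15), -0.06 (-0.44 to 0.32) and -0.0009 (-0.35 to 0.35), with limma adjusted p of 0.863, 0.951 and 1. Without Cdh1-intact array 2 they were -0.13, -0.18 and -0.12.
Of the non-catalytic beta subunits, Psmb4 read 12.48, 12.44 and 12.65 in Cdh1-deficient and 12.39, 12.23 and 12.38 in Cdh1-intact cells, so that all 3 Cdh1-deficient arrays were higher. The difference was 0.19 (SE 0.11, 95% interval -0.08 to 0.46, limma adjusted p = 0.849), and its other probe set, at 12.08, 12.06 and 11.94 in Cdh1-deficient and 12.09, 11.83 and 11.87 in Cdh1-intact cells, overlapped with a difference of 0.10. Psmb2 read 11.61, 11.58 and 11.92 in Cdh1-deficient and 11.59, 11.46 and 11.50 in Cdh1-intact cells, with Cdh1-deficient array 3 highest and the other values close together. Psmb1 differed by 0.0016 and Psmb3 by -0.04, with overlap, or -0.05 and -0.19 without Cdh1-intact array 2.

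The ATPase ring, the motor that unfolds substrates, held both ends of the range. Psmc2 read 11.85, 11.80 and 11.88 in Cdh1-deficient and 11.50, 11.53 and 11.65 in Cdh1-intact cells. All 3 Cdh1-deficient arrays were higher, by 0.15 at the nearest pair. The difference was 0.28 (SE 0.09, 95% interval 0.05 to 0.52), a fold of 1.22, and did not pass the limma test over all genes (adjusted p = 0.849). It was 0.27 without Cdh1-intact array 2, and 0.25 to 0.33 over the 6 fits that each left out 1 array. A second probe set of Psmc2 read 11.50, 11.34 and 11.56 in Cdh1-deficient and 11.07, 11.25 and 11.26 in Cdh1-intact cells, again with no overlap and a difference of 0.27. A further probe set, at a mean level of 3.69, differed by -0.02 with overlap, and the mean of all 3 gave 0.18, for which the unadjusted p was no longer under 0.05.
Psmc3 lay at the other end, at 11.55, 11.20 and 11.54 in Cdh1-deficient and 11.54, 11.77 and 11.82 in Cdh1-intact cells. Cdh1-deficient arrays 1 and 3 and Cdh1-intact array 1 were nearly equal, so the groups overlapped there, and Cdh1-deficient array 2 was lowest. The difference of -0.28 (SE 0.14, 95% interval -0.63 to 0.07, limma adjusted p = 0.849) kept its sign in each fit that left out 1 array, between -0.36 and -0.17. Psmc4 read 11.69, 11.41 and 11.48 in Cdh1-deficient and 11.54, 11.45 and 11.91 in Cdh1-intact cells on the chosen probe set, with overlap and a difference of -0.11, or -0.20 without Cdh1-intact array 2. Its other probe set read 10.63, 10.22 and 10.46 in Cdh1-deficient and 10.69, 10.67 and 10.91 in Cdh1-intact cells, lower on all 3 Cdh1-deficient arrays with a difference of -0.32, so the gene's value depended on the probe set. Psmc1, Psmc5 and Psmc6 differed by -0.04, -0.02 and -0.01, and their groups overlapped. In all, 1 of 6 ATPase genes was higher and 5 lower, with a median of -0.03.

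Among the 12 genes of the non-ATPase group 4 were higher and 8 lower, with a median of -0.05. The groups of all 12 overlapped, where those of 11.7% of all genes did not. A list of 12 genes is too short to set that count apart from the share of all genes. Psmd14, the deubiquitinase that removes the chain as the substrate enters, read 11.89, 12.04 and 11.94 in Cdh1-deficient and 12.02, 12.01 and 12.14 in Cdh1-intact cells. Its inactive partner Psmd7 read 10.52, 10.15 and 10.32 in Cdh1-deficient and 10.57, 10.22 and 10.43 in Cdh1-intact cells. Psmd4, a receptor for ubiquitin chains, read 10.89, 10.95 and 11.09 in Cdh1-deficient and 11.20, 10.79 and 10.79 in Cdh1-intact cells, with Cdh1-intact array 1 the highest of the 6. Their differences were -0.10, -0.07 and 0.05, and in each the groups overlapped.
The scaffold subunits of the base, Psmd1 and Psmd2, differed by 0.11 and -0.04, and the value of Psmd1 was 0.01 without Cdh1-intact array 2. Psmd3, a lid subunit, read 10.76, 10.48 and 10.85 in Cdh1-deficient and 10.73, 11.12 and 10.89 in Cdh1-intact cells, with Cdh1-intact array 2 highest and Cdh1-deficient array 2 lowest, and differed by -0.22 (SE 0.16, limma adjusted p = 0.849), or -0.12 without Cdh1-intact array 2. Psmd13, also of the lid, read 10.16, 9.57 and 10.08 in Cdh1-deficient and 10.33, 9.93 and 10.30 in Cdh1-intact cells. It was lowest on array 2 of each group, and its difference of -0.25 (SE 0.20, 95% interval -0.75 to 0.25, limma adjusted p = 0.849) was -0.07 without Cdh1-deficient array 2 and -0.38 without Cdh1-intact array 2.
The remaining lid subunits Psmd6, Psmd11 and Psmd12 differed by -0.01, -0.09 and 0.12. Psmd5, which is not a part of the finished particle but a chaperone of the base, read 9.003, 8.53 and 8.78 in Cdh1-deficient and 8.51, 8.99 and 8.99 in Cdh1-intact cells. Both groups covered the same range, and its difference was -0.06.

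The 3 separated genes lie on 2 chromosomes on which most genes were higher in Cdh1-deficient cells. Psma5, Psmb4 and Psmd4 are on chromosome 3 and Psmc2 is on chromosome 5. All 4 were higher, with a median of 0.23. Among genes at or above the median level, the median difference was 0.31 over 446 genes of chromosome 3 and 0.36 over 607 genes of chromosome 5, with 383 and 528 of them higher and 33.6% and 40.5% separated. On chromosomes 7 and 11, which hold 4 and 6 members, the same medians were 0.03 over 664 genes and 0.04 over 781 genes, with 7.08% and 11.4% separated. The 28 members off chromosomes 3 and 5 had a median of -0.04, with 8 higher, 20 lower and 0 separated. Of all genes off these chromosomes 10.2% were separated. Among the 28, the 5 members on chromosome 2 were all lower, with a median of -0.06. The median over all genes of chromosome 2 was not taken. The split by chromosome was chosen after the values were seen, and its part in the result was not tested.

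The members' further probe sets, of lower mean by the rule of choice, scattered more within groups. The 32 genes had 68 probe sets in all, 14 genes with 1 and 18 with several. Of the 36 probe sets not chosen, 25 had a difference of the same sign as the chosen one. Of those with a mean level of 9 or more this held for 10 of 13, and below that level for 15 of 23. The median within-group SD was 0.14 for the chosen probe sets, 0.20 for the others at a level of 9 or more and 0.28 for those below. Psma1 shows the scatter, with a difference of 0.05 at the chosen probe set and -0.01, 0.51 and 0.40 at its 3 others. Psmd11, with 8 probe sets, differed by -0.09 at the chosen one, 0.27 at the next and -0.33 to -0.09 at all the others.

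**Figure D4:**
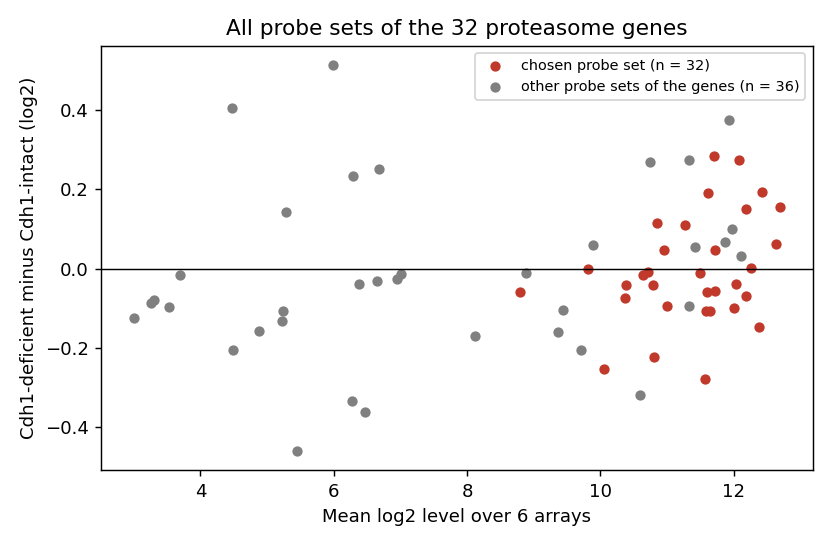
Difference between Cdh1-deficient and Cdh1-intact cells (y axis, log2) against mean log2 level over the 6 arrays (x axis) for all 68 probe sets of the 32 genes, with the chosen probe set of each gene in red. The red points lie at levels of 8.80 to 12.70 and within 0.3 of 0, and the dimmer probe sets spread more widely.

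Other parts of the pathway were read from lists drawn up for this purpose, and no gene of them passed the limma test over all genes. In the immunoproteasome the inducible Psmb8, Psmb9 and Psmb10 take the places of Psmb5, Psmb6 and Psmb7. Psmb8 read 11.74, 11.58 and 11.73 in Cdh1-deficient and 11.66, 12.42 and 11.86 in Cdh1-intact cells. Psmb9 read 10.23, 9.86 and 10.00 in Cdh1-deficient and 10.37, 10.75 and 10.56 in Cdh1-intact cells. Psmb10 read 10.73, 10.45 and 10.41 in Cdh1-deficient and 10.79, 10.75 and 11.05 in Cdh1-intact cells. All 3 Cdh1-deficient arrays were lower for Psmb9, with a difference of -0.53 (SE 0.15, limma adjusted p = 0.849), and for Psmb10 (-0.33, SE 0.14, limma adjusted p = 0.849), while Psmb8 overlapped at Cdh1-intact array 1. Psmb8 was highest on Cdh1-intact array 2, the array with T and NK transcripts, and its difference was -0.30 with that array and -0.08 without it. Without that array the differences of Psmb9 and Psmb10 were -0.44 and -0.39. The difference between inducible and constitutive subunits was not tested.

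**Figure D5:**
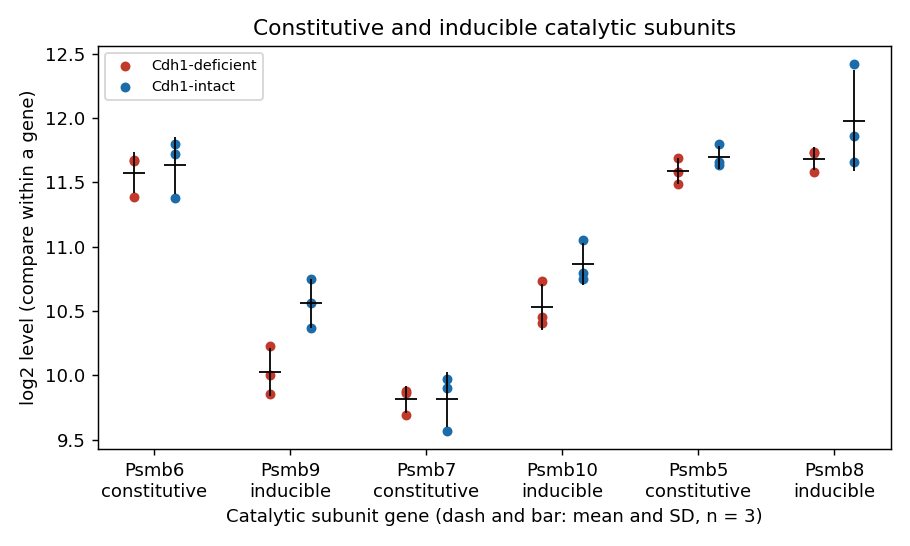
Log2 level (y axis) of the constitutive catalytic subunits Psmb6, Psmb7 and Psmb5, each followed by its inducible counterpart, in 3 Cdh1-deficient (left, red) and 3 Cdh1-intact arrays (right, blue), with the mean and SD (dash and bar). Levels may be compared within a gene only. The groups overlap for the constitutive genes and for the inducible Psmb8, and separate for Psmb9 and Psmb10. On the whole list of inducible and tissue-specific subunits and activators 3 of 8 measured genes were separated, against 11.7% of all genes.

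On the whole list of inducible and tissue-specific subunits and activators (8 of 9 measured, 2 higher and 6 lower, median -0.23), Psme1, a subunit of the PA28 activator, was lower on all 3 Cdh1-deficient arrays, at 11.95, 11.77 and 11.78 against 11.99, 12.02 and 12.16 in Cdh1-intact cells. Psme3 and Psme4, genes of the nuclear activators, differed by -0.05 and -0.24, or -0.15 and -0.37 without Cdh1-intact array 2. Psmb11, the catalytic subunit of thymic epithelium, lay near the floor on all arrays at 4.08 to 4.41 in Cdh1-deficient and 4.08 to 4.36 in Cdh1-intact cells. Psma8, the germ-cell counterpart of Psma7, read 8.19, 4.03 and 8.03 in Cdh1-deficient and 4.22, 3.95 and 3.79 in Cdh1-intact cells. It was thus high on Cdh1-deficient arrays 1 and 3 and close to the floor on the remaining 4, and its difference of 2.76 (SE 1.13) did not pass (limma adjusted p = 0.849).

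Genes of proteins that build or attach to the particle lay on both sides of 0. Of the assembly chaperones 6 of 7 were measured, 3 higher and 3 lower, with a median of 0.04. Pomp, which matures the core, read 12.03, 12.11 and 12.05 in Cdh1-deficient and 11.88, 12.01 and 11.92 in Cdh1-intact cells, higher on all 3 Cdh1-deficient arrays by a mean of 0.13. Psmg3 and Psmd9, chaperones of the alpha ring and the base, differed by 0.43 and 0.33 with overlap, or 0.26 and 0.14 without Cdh1-intact array 2. All 3 genes lie on chromosome 5.
Of the associated proteins 7 of 8 were measured, 5 higher and 2 lower, with a median of 0.13. The ubiquitin ligase Ube3c, on chromosome 5, read 7.98, 7.95 and 8.19 in Cdh1-deficient and 7.35, 7.62 and 7.45 in Cdh1-intact cells, a difference of 0.57 (SE 0.12, limma adjusted p = 0.849). The deubiquitinase Uchl5, on chromosome 1, read 11.72, 12.01 and 11.88 in Cdh1-deficient and 11.68, 11.39 and 11.70 in Cdh1-intact cells, also higher on all 3 Cdh1-deficient arrays, with a difference of 0.28, or 0.18 without Cdh1-intact array 2. Psmf1, an inhibitor of the core in the test tube, read 8.57, 8.67 and 8.66 in Cdh1-deficient and 8.97, 8.74 and 8.94 in Cdh1-intact cells, lower on all 3 Cdh1-deficient arrays. None of these passed the test. The genes named are the 3 of smallest p in each list. Among the associated proteins 3 of 7 genes were separated, and among the chaperones 1 of 6, against 11.7% of all genes.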

How the data were processed

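The deposited table holds log2 values of 45101 probe sets on 6 arrays, made by the authors with RMA (named in the submitters' processing notes, version not given in the sources used here). By design that method subtracts background, brings the probe intensities of the arrays to 1 distribution and combines the probes of a set. No detection call was used. Names of probe sets follow GEO's annotation of 2016. Left out were 932 with several symbols, 9211 unlisted and 64 control sets, and these classes overlap. The 34945 probe sets that remained gave 18193 genes, each at its probe set of highest mean. Chromosomes and promoters are from RefSeq (GRCm38.p6). A companion gene without a single-symbol probe set was not analysed here.

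All genes were fitted together with limma 3.58.1 in R 4.3.3 (lmFit, eBayes, two-sided; Benjamini-Hochberg over all genes, threshold 0.05), with Cdh1-deficient minus Cdh1-intact differences, moderated SE and 95% intervals. The fit was tested on simulated data. The number of arrays limits the precision. The members, lists and tests were chosen with earlier results of these data known. Named were all members, every gene of the inducible list and up to 3 genes of smallest p per other companion list; Nfe2l1 was added after its values were seen.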

Additional observations from a re-analysis of the deposited data

How the results depend on the processing

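In each of 14 alternatives 0 genes and 0 members passed the limma test at an adjusted p under 0.05; without adjustment 1000 genes and 1 member had a p under 0.05. That member count was 0 with the mean of all probe sets, without shared-target probe sets, with the replicate block, and with chromosomes 3 and 5 left out, a setting chosen after seeing the data in which the genes numbered 666. It was 0 to 1 over the fits that left out 1 array, in which the genes numbered 442 (without Cdh1-deficient array 3) to 1751 (without Cdh1-intact array 3), with 656 without Cdh1-deficient array 2. The count was 0 without Cdh1-deficient array 1 or 3 and without Cdh1-intact array 1 or 2. With the replicate block 975 genes had an unadjusted p under 0.05. Same-numbered arrays did not deviate together (r = -0.14, 0.01 and 0.04 across genes for numbers 1, 2 and 3), so the numbers were not taken as pairs. The 3 separated members (11.7% of all genes) became 1 when probe sets were averaged (2179 of 18193 genes), 0 without chromosomes 3 and 5 (10.2%), and 4 (without Cdh1-deficient array 3) to 8 (without Cdh1-intact array 2 or 3) with 1 array left out, where fewer arrays separate more easily and 17.3% to 28.4% of all genes were separated.

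The count of higher members ranged over 9 to 20 with 1 array left out. It was 20 without Cdh1-deficient array 2 and 19 without Cdh1-intact array 3, where the median was 0.03 in both. Of the 32 members 13 kept their sign in every alternative that gave them a value (Psmb5, Psmd12 and Psmd14 had none without shared-target probe sets), among them Psmc2, Psmb4, Psmb2, Psmc3 and Psmd13. Signs turned with median centring for Psmb7 (0.013), Psmc6 (0.0048) and Psmd6 (0.0039). With the mean of all probe sets they turned for Psma3 (-0.10), Psmb3 (0.013), Psmc6 (0.077) and Psmd6 (0.023). Without shared-target probe sets, which leaves 28 members, the values were -0.36 for Psma3, -0.21 for Psma5, -0.13 for Psmb1, 0.067 for Psmb3, 0.25 for Psmc6 and 0.27 for Psmd11. For Psma3, Psma5, Psmb1 and Psmc6 the probe sets then used were much dimmer, at mean levels of 6.47, 4.48, 5.23 and 6.69. The probe sets of the main fit lay at 12.70, 12.07, 12.26 and 10.71. For Psmb3 and Psmd11 the probe sets then used lay at 11.86 and 10.75. Array weights gave -0.0059 for Psmb1 and 0.0030 for Psmc1. With 1 array left out the range crossed 0 for Psma1 (-0.010 to 0.10), Psma2 (-0.24 to 0.033), Psma7 (-0.13 to 0.036), Psmb1 (-0.048 to 0.088), Psmb3 (-0.19 to 0.068), Psmb6 (-0.18 to 0.034), Psmb7 (-0.12 to 0.078), Psmc1 (-0.15 to 0.019), Psmc4 (-0.20 to 0.032), Psmc5 (-0.13 to 0.049), Psmc6 (-0.10 to 0.059), Psmd4 (-0.022 to 0.18), Psmd5 (-0.22 to 0.063), Psmd6 (-0.035 to 0.035), Psmd7 (-0.17 to 0.017), Psmd8 (-0.15 to 0.37) and Psmd11 (-0.18 to 0.049). The causes were not tested.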

Other observations

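Upstream of the proteasome, genes that supply ubiquitin, deliver substrates or unfold them were measured for 11 of 17 names. Of these 9 were higher and 2 lower in Cdh1-deficient cells, with a median log2 difference of 0.20 against 0.0034 over all genes. Their mean levels were 8.11 to 11.97. Of the 3993 genes at or above the level of the lowest proteasome member, 62.0% were higher, with a median of 0.07. No gene passed the limma test over all genes. In 4 of the 11 the groups did not overlap, against 11.7% of all genes. Ubqln4, Sqstm1 and Uba6 are named as the 3 of smallest p, so their separation follows in part from that choice. The delivery factor Ubqln4, on chromosome 3, read 9.80, 9.92 and 9.87 in Cdh1-deficient and 9.19, 9.18 and 9.50 in Cdh1-intact cells. The ubiquitin-activating enzyme Uba6, on chromosome 5, read 9.70, 10.16 and 10.08 in Cdh1-deficient and 8.59, 9.04 and 9.62 in Cdh1-intact cells. Both were higher on all 3 Cdh1-deficient arrays. Sqstm1, the autophagy receptor for ubiquitin also called p62, read 8.02, 7.49 and 7.82 in Cdh1-deficient and 8.73, 8.41 and 8.21 in Cdh1-intact cells, lower on all 3 Cdh1-deficient arrays. The limma differences of Ubqln4, Uba6 and Sqstm1 were 0.57 (SE 0.12), 0.90 (SE 0.28) and -0.67 (SE 0.20), each with an adjusted p of 0.849.

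Transcription factors and enzymes that act on proteasome genes were measured for 12 of 13 names, 7 higher and 5 lower, with a median of 0.05. Nfe2l1 read 8.56, 8.40 and 8.60 in Cdh1-deficient and 8.25, 8.33 and 8.80 in Cdh1-intact cells, where the groups overlapped and the difference was 0.06 (SE 0.17, limma adjusted p = 0.953). The 3 regulators of smallest p were Maff, a small partner of Nfe2l1, at -1.06, Nfyb at -0.21 and Nfya at 0.62. Maff read 5.37, 4.95 and 5.68 on the Cdh1-deficient and 5.82, 7.80 and 5.55 on the Cdh1-intact arrays, so that Cdh1-intact array 2 stood apart, and the differences of Maff and Nfyb were -0.35 and -0.11 without it. Nfya was lowest on Cdh1-intact array 1, at 7.27. The groups of all 12 genes overlapped, where those of 11.7% of all genes did not, and a list of 12 is too short to set that apart.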
